A study of Mus musculus with 74 samples.

Results

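The genes described here are 7 named genes whose RNA had some of the larger falls when Bcl6 was deleted in mouse quadriceps: Gprc5c, Rasd2, Dupd1, Tnfaip2, Gdap1, Galr2 and Cd28, of 24940 genes in each RNA table. They are not the 7 largest falls of any 1 comparison: counted from the largest fall, they ranked 2 to 112 against Cre-negative muscle, 4 to 111 against oil-treated muscle and 4 to 192 in RiboTag mRNA. They were chosen by their measured falls in the knockout RNA comparisons, so every knockout RNA and footprint value below is a description and carries no test. All 7 were found by exact symbol in the poly(A), RiboTag and nascent RNA tables. By gene name, 6 of the 7 had H3K27ac regions and 3 had BCL6 peaks.

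All mice were C57BL/6. Poly(A) RNA came from 5 tamoxifen-treated AEC-Esr Cre (+):Bcl6 fl/fl knockouts, 4 tamoxifen-treated Bcl6 fl/fl mice without Cre, and 4 AEC-Esr Cre (+):Bcl6 fl/fl mice given oil, whose Bcl6 is floxed but was not exposed to tamoxifen. RiboTag (+) mice express a tagged ribosomal protein, and the knockouts (AEC-Esr Cre (+):Bcl6 fl/fl, 4 animals) were compared with 4 AEC-Esr Cre (+) controls without floxed Bcl6, all given tamoxifen. Each RiboTag animal gave 1 poly(A) mRNA library and 1 library of ribosome footprints, the RNA stretches protected by ribosomes that were pulled down with beads against the HA tag. The labels list that antibody for the poly(A) mRNA libraries too, so it is not known if this mRNA was taken before or after the pull-down, and the RiboTag mRNA, its markers and translation efficiency are read with that limit. Nascent RNA came from wild-type quadriceps treated with FX1, an inhibitor of BCL6 (5 libraries), or with the solvent DMSO (5 libraries). H3K27ac, the acetylated form of histone H3 that marks active regulatory DNA, was mapped in an acute and a chronic series, headed 1 and 12 weeks in the files, each with 3 knockouts and 3 Bcl6 fl/fl mice without Cre, all given tamoxifen. Another H3K27ac set covered 3 of the poly(A) knockouts and 3 of the Cre-negative mice, by animal number. BCL6 binding was measured in wild-type muscle with 1 library. The age and sex of the mice are not given in the sources used here, nor is the cell type in which the AEC-Esr Cre acts or the deleted part of Bcl6. The libraries carry animal numbers or replicate numbers and no more, so p-values measure the spread between these samples.

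BCL6 is a zinc finger repressor that recruits corepressor complexes to its target genes. It is best known in germinal centre B cells and follicular helper T cells, and it is also expressed in muscle, liver and fat. Genes that fall when a repressor is lost are often placed downstream of its direct targets, and nothing below tests that order. The 7 genes have no common family. Gprc5c is an orphan G protein-coupled receptor of the retinoic acid-inducible group, Galr2 is a receptor for the neuropeptide galanin, and Cd28 is the costimulatory receptor of T cells. Rasd2, also called Rhes, is a Ras-like small GTPase, and Dupd1 is a dual specificity phosphatase of skeletal muscle. Tnfaip2, also called M-Sec, is a TNF-inducible relative of exocyst subunits, and Gdap1 is a protein of the mitochondrial outer membrane that takes part in mitochondrial fission.

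For poly(A) RNA of Cre-negative muscle, log2 of the exon length in kilobases was subtracted from the mean deposited log2 value. The result was highest for Tnfaip2 (8.27) and Gprc5c (8.20). Dupd1 (7.69), Rasd2 (7.28) and Gdap1 (6.11) followed, and Cd28 (5.07) and Galr2 (5.01) were lowest. Because the transform behind the deposited values is not named, this order is not read as an order of RNA level per kilobase. The genes lie on chromosomes 1 (Gdap1 and Cd28), 8 (Rasd2), 11 (Gprc5c and Galr2), 12 (Tnfaip2) and 14 (Dupd1) of mm10. None of the 7 gene bodies overlapped another RefSeq gene on either strand (0 for each). Tags counted there without regard to strand are thus not shared with another RefSeq gene body. Whether some came from transcripts outside these annotations was not checked.

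The 250 bases before the start of Dupd1 are shown because Dupd1 was the only one of the 7 with lower H3K27ac beside its start in every knockout library of both the acute and the chronic series. The sequence is from RefSeq, GRCm38.p6 (mm10), minus strand, chr14:21714577-21714826, and is printed 5′ to 3′. Capitals mark the match to the MEF2-like core CTATTTNTA, which here lies on the opposite strand and begins 34 bases before the start.
Dupd1: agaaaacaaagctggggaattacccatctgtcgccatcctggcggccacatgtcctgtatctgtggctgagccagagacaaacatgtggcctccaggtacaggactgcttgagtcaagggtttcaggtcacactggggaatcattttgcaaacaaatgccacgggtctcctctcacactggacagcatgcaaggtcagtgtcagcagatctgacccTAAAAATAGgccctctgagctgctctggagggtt
The MEF2-like core was held by 1.199% of the 32851 RefSeq promoter windows of this length, searched on both strands. The same window of Dupd1 held 4 E-boxes (CANNTG, held by 66.2% of windows). The core of the BCL6 motif (TTCCTNGAA, 1.31% of windows) was not matched in the windows of Dupd1, Tnfaip2, Rasd2 or Galr2, the 4 members in the table, and the looser STAT-type pair TTCNNNGAA (7.02% of windows), of which that core is a special case, matched once, in Galr2. The glucocorticoid-type pair ACANNNTGT (5.84% of windows) was matched in 0 of the 4. A match is a string of letters and was not tested as a binding site.

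Bcl6 itself, as a check of the labels, was lower in knockout poly(A) RNA than in Cre-negative muscle by 0.23 ± 0.06 (log2, SE, limma adjusted p = 0.0134, n = 5 and 4), and lower than in oil-treated muscle by 0.31 ± 0.06 (adjusted p = 0.00272). Its footprints, in CPM (counts scaled to the size of the library, after TMM), were 196.7 ± 57.6 CPM in RiboTag controls and 90.7 ± 15.9 CPM in knockouts (SD, n = 4 each, edgeR adjusted p = 0.00201). In the RiboTag mRNA libraries, counted over whole gene bodies, Bcl6 was not lower in the libraries labelled knockout (208.6 ± 94.5 against 229.4 ± 38.8 CPM, edgeR adjusted p = 0.840). Exons that stay in place after deletion are counted with the rest, and the position of the deletion was not used here. Poly(A) libraries held 6704 to 7624 tags in units of 1000, and RiboTag libraries 3248807 to 13045854 counts in genes. Muscle fibre markers were abundant throughout: the 10 markers averaged 12.53 to 12.65 in log2 value in the Cre-negative table.

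In poly(A) RNA, every knockout library lay below every Cre-negative library for 7 of the 7 genes, which was so for 9.0% of the 13096 genes past the filter, and below every oil-treated library for 7 of 7 (11.9% of 13124 genes). The comparisons share the 5 knockouts, and the falls are what chose the genes. In this bulk muscle RNA, fewer cells of a type and less RNA per cell cannot be told apart. The median log2 difference of the 7 was -0.63 against Cre-negative and -0.81 against oil, beside medians over all genes of 0.00246 and 0.00284. The authors' transform to log2 values is not named. On this scale the differences of all 7 genes, in both comparisons, were smaller in size than the authors' own fold changes. Against Cre-negative muscle the authors' values were -1.26 for Dupd1, -1.09 for Tnfaip2, -0.98 for Rasd2 and -0.60 for Gdap1. Those of Galr2, Cd28 and Gprc5c are given below.

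Among the receptors, Gprc5c measured 10.06, 10.16, 10.35 and 10.19 in the Cre-negative libraries and 9.21, 9.17, 9.25, 9.26 and 9.22 in the knockouts. It fell by 0.97 ± 0.05 (log2, SE), the rank 2 fall among the 13096 genes. Against oil (10.03, 10.11, 10.06 and 10.51) the difference was -0.97 ± 0.08, and the knockouts sat in a narrow band below both control groups. Cd28 measured 7.13, 7.21, 7.20 and 7.16 without Cre, 6.52, 6.59, 6.53, 6.53 and 6.55 in knockouts, and 7.37, 7.32, 7.21 and 7.49 with oil. Its differences were -0.63 ± 0.03 and -0.81 ± 0.05. Galr2 measured 6.06, 5.80, 6.05 and 5.95 without Cre and 5.54, 5.54, 5.55, 5.55 and 5.55 in knockouts. The 5 knockouts were nearly identical (SD 0.00378), and the difference was -0.42 ± 0.04. The transform is not named, and Galr2 is a low gene, with 5 to 25 reads in RiboTag knockout mRNA. Its narrow spread and SE are therefore not read as precision. With oil Galr2 was 5.68, 5.91, 5.72 and 5.602 (-0.41 ± 0.05). In the authors' deposited table the log2 fold change against Cre-negative was -1.78 for Cd28 and -1.56 for Galr2, ranks 1 and 2 from the lowest of 19052 genes, and -1.33 for Gprc5c.

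Of the signalling enzymes, Rasd2 measured 8.67, 8.61, 8.93 and 8.87 in Cre-negative muscle and 8.20, 8.18, 8.17, 8.07 and 8.21 in knockouts, a difference of -0.60 ± 0.06. With oil it was 9.27, 9.56, 9.58 and 9.25, and the difference was -1.13 ± 0.07. Dupd1 showed the same order: 7.86, 7.61, 7.81 and 8.01 without Cre against 7.17, 7.09, 7.23, 7.24 and 7.20 in knockouts (-0.63 ± 0.06). Its oil-treated libraries measured 8.29, 8.34, 8.47 and 8.51 (-1.09 ± 0.05), and in the authors' deposited table its fold change against oil (-1.97) was rank 1 from the lowest. For Rasd2, Dupd1, Gdap1 and Cd28 the difference against oil was the larger of the pair. The control groups were normalised in separate tables and differ in both Cre and tamoxifen, so whether their levels differ was not tested.

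Tnfaip2 measured 10.16, 10.01, 10.14 and 10.09 without Cre and 9.37, 9.33, 9.25, 9.33 and 9.31 in knockouts (-0.78 ± 0.03), and the oil comparison gave -0.79 ± 0.03. Gdap1 had the smallest difference against Cre-negative muscle, with 8.07, 8.06, 8.07 and 8.16 against 7.86, 7.82, 7.71, 7.81 and 7.68 (-0.31 ± 0.04, rank 112 from the lowest). Against oil (8.63, 8.39, 8.49 and 8.38) it was -0.60 ± 0.06. The groups did not overlap for either gene.

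**Figure D1:**
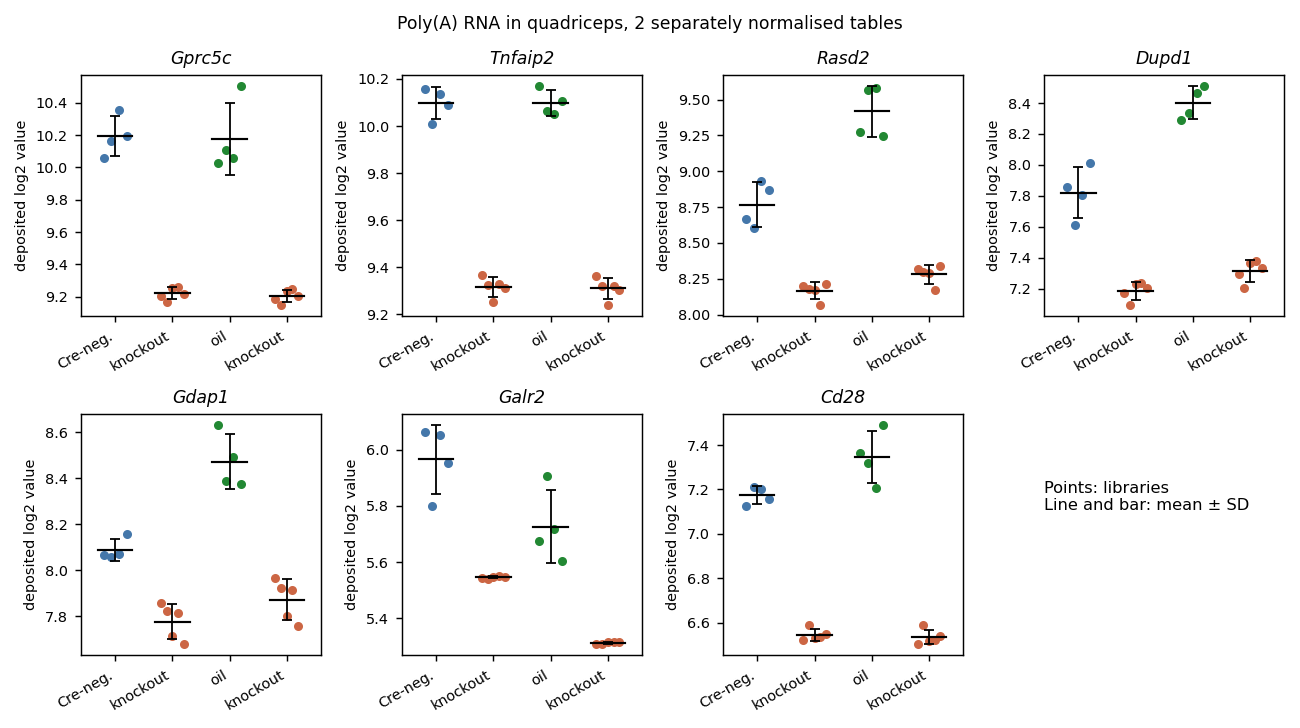
Deposited log2 values of poly(A) RNA (y axes) for the 7 genes in tamoxifen-treated Cre-negative, knockout and oil-treated muscle, each table with its own knockout values. Points are libraries and bars mean ± SD. In all 7 panels the knockout libraries sit below both control groups. For Galr2 the 5 knockouts nearly coincide on this transformed scale, which is not read as precision.

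In RiboTag mRNA the knockouts were below all controls for 7 of 7 genes, which was so for 5.64% of 14476 genes. The median log2 change of the 7 was -1.90 (all genes 0.0120). These falls are among those that chose the genes, so they do not repeat the poly(A) result independently. On this scale of counts the falls ranged from 1.84-fold for Gprc5c to 7.52-fold for Cd28. Cd28 was 8.96, 12.8, 13.5 and 8.41 CPM in the 4 controls and 2.26, 1.63, 0.547 and 1.38 CPM in the knockouts, which is 50 to 139 and 5 to 23 counted reads. Gdap1 was 62.0, 79.7, 51.2 and 59.2 CPM against 13.0, 12.4, 10.3 and 10.5 CPM, so knockout muscle held 18.4% of the control level. Galr2 was 8.96, 5.52, 8.64 and 3.87 CPM against 0.491, 2.55, 1.42 and 1.45 CPM, a 4.57-fold lower mean that rests on 5 to 25 reads in the knockouts. For Gdap1, in contrast, the spread within each group was small beside the gap.

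Dupd1 was 79.9, 118, 95.5 and 103 CPM in control mRNA and 25.2, 22.5, 29.9 and 28.3 CPM in knockouts (26.8% of control). Rasd2 was 115, 141, 113 and 104 CPM against 44.4, 37.8, 36.2 and 22.9 CPM (29.9%). These enzymes thus had lower shares of their control level left than the abundant pair Tnfaip2 and Gprc5c. Tnfaip2 was 166, 202, 217 and 196 CPM against 110, 81.4, 88.4 and 97.2 CPM (48.2%). Gprc5c was 163, 190, 224 and 174 CPM against 110, 95.0, 97.3 and 105 CPM (54.3%). In RiboTag mRNA, Cd28 and Gdap1 were the furthest from control among the 7. On the deposited log2 scale of poly(A) RNA, Gprc5c and Tnfaip2 led against Cre-negative muscle and Rasd2 and Dupd1 against oil. By the authors' own fold changes, Cd28 (-1.78) and Galr2 (-1.56) led against Cre-negative muscle, and Dupd1 (-1.97) and Cd28 (-1.93) against oil. The deposited poly(A) values are on the authors' transformed scale, and the RiboTag controls carry Cre but no floxed Bcl6. The orders are thus not on 1 scale.

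**Figure D2:**
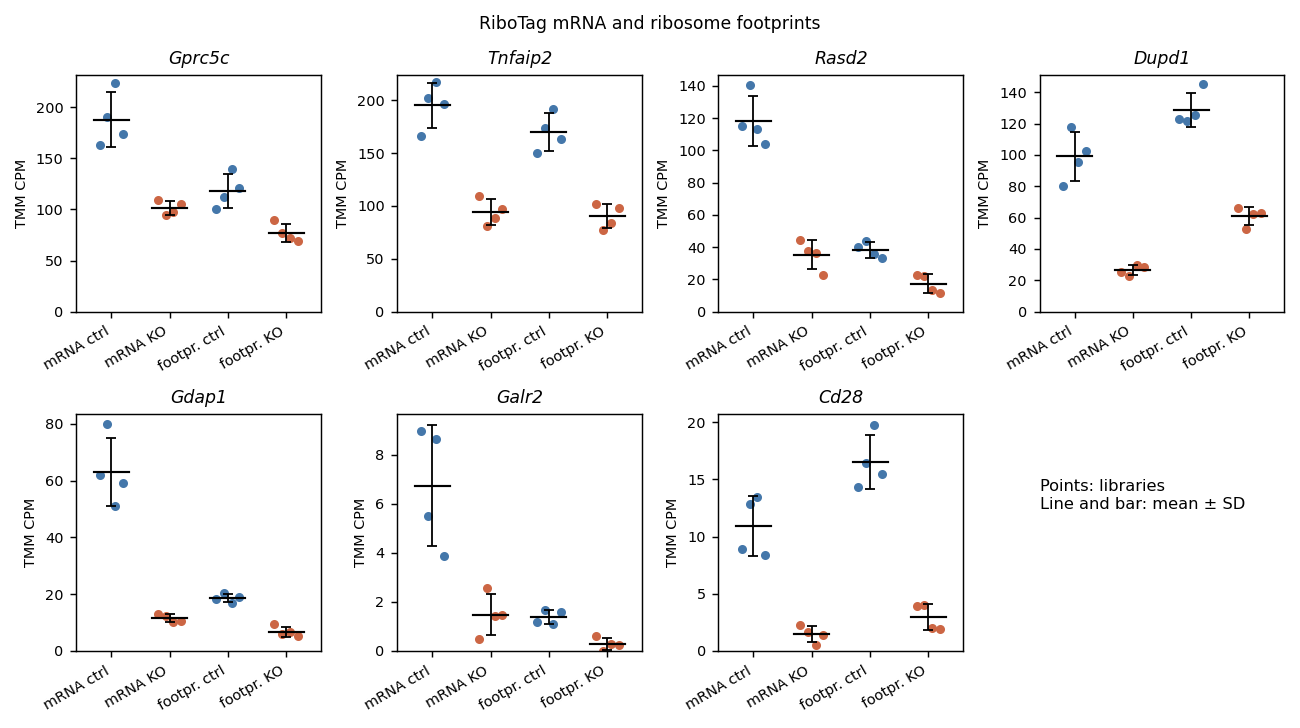
CPM after TMM scaling (y axes, from 0) of the 7 genes in RiboTag mRNA and footprint libraries of 4 control and 4 knockout animals. Points are libraries and bars mean ± SD; no knockout library reaches a control library of the same kind in any panel.

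Ribosome footprints were lower in knockouts without overlap for the 6 genes that passed the filter, beside 13.2% of the 12979 genes tested. Cd28 footprints were 14.3, 16.4, 19.8 and 15.5 CPM in controls and 3.92, 3.997, 2.02 and 1.90 CPM in knockouts, 17.9% of control. Gdap1 was 18.2, 20.2, 17.0 and 18.9 CPM against 9.34, 6.00, 6.63 and 5.22 CPM (36.6%). The falls in the other members were smaller. Rasd2 stood at 45.5% of control (38.3 ± 4.89 against 17.4 ± 5.83 CPM, SD, n = 4 each), Dupd1 at 47.3% (129 ± 11.02 against 60.9 ± 5.84), Tnfaip2 at 53.2% (170 ± 17.6 against 90.4 ± 11.7) and Gprc5c at 65.1% (118 ± 16.5 against 77.0 ± 9.23). Galr2 had 4 to 7 footprint reads in controls and 0 to 2 in knockouts, which is too few for the filter, so its fold is not given.

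Translation efficiency, the footprint change less the mRNA change, was above 0 in the fit for 6 of the 7 genes, beside 54.8% of the 14935 genes fitted. It subtracts the mRNA change, which is among the values that chose the genes, so nothing is read from this count. The log2 differences were 1.03 ± 0.25 (SE) for Gdap1, 0.86 ± 0.18 for Dupd1, 0.64 ± 0.28 for Rasd2, 0.44 ± 0.46 for Cd28, 0.30 ± 0.17 for Gprc5c and 0.19 ± 0.17 for Tnfaip2. For Cd28 and Tnfaip2 the SE is about as large as the difference. Galr2 (-0.01) rests on the few footprint reads given above, and no value is read from it. In the authors' deposited table the efficiency of Gdap1 was 0.126 in controls and 0.219 in knockouts, and the differences were smaller than in the fit for Rasd2 (0.30), Dupd1 (0.22) and Cd28 (-0.01). For Cd28 the authors' deposited table and the fit differ in sign, and for Tnfaip2 as well (-0.07).

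Markers of other cells moved in the footprint libraries. With genes lowered at 15.7% of those tested, 8 of 8 endothelial, 7 of 8 macrophage, 6 of 6 fibroblast and 4 of 4 adipocyte markers tested were lowered, against 3 of 10 muscle fibre markers (edgeR adjusted p below 0.05). Of the remaining sets, 3 of 6 Schwann and nerve markers were lowered and 1 raised. Among satellite cell markers 2 of 5 were lowered, and 0 of 2 T cell markers tested were called. Summed endothelial markers were 449 to 825 CPM in control footprints and 156 to 412 CPM in knockouts, and summed macrophage markers 949 to 1350 against 320 to 762 CPM. In mRNA of the same animals these sums overlapped: 978 to 1125 against 931 to 1128 CPM for endothelial and 198 to 499 against 218 to 535 CPM for macrophage markers. The footprints come from an HA pull-down, and RNA carried over from cells without the tag was not measured. The part of other cells in the footprint falls was not tested.

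Cd28 is a T cell gene, so the 15 T cell markers listed were read beside it. Of these, 12 were in the table, and their summed level in mRNA was 28.8 to 40.3 CPM in controls and 28.7 to 37.9 CPM in knockouts, with most of it from Cd247 (17.0 to 30.0 and 23.6 to 32.2 CPM). Cd3d and Cd3g, subunits of the T cell receptor complex, were at or near 0 (at most 1.01 CPM for Cd3d and 0.746 CPM for Cd3g), and Cd8b1 at most 0.219 CPM, below the 8.41 to 13.5 CPM of Cd28 in controls. Cd3e was the exception and was lower in knockouts (7.23 ± 3.38 against 1.98 ± 0.470 CPM, SD, n = 4 each, edgeR adjusted p = 0.0115). In footprints the summed T cell markers were 20.99 to 24.3 CPM in controls and 12.7 to 14.8 CPM in knockouts, and 0 of the 2 tested were called. The part of T cells in the Cd28 fall was not tested. Cd80, a ligand of CD28 on antigen-presenting cells, was present at 13.0 to 14.9 CPM in control and 10.1 to 12.1 CPM in knockout mRNA, and its change did not pass the test.

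FX1 gives a measure that did not choose the genes, in other mice and on newly made RNA. Of the 7 genes, 6 passed the filter and 3 were lowered (limma adjusted p below 0.05): Gprc5c, Rasd2 and Cd28. Genes lowered made up 10.8% of the 14642 tested. For the same 3 genes every FX1 library lay below every DMSO library, which was so for 8.69% of genes.

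Gprc5c nascent RNA was 7.55, 8.01, 7.94, 8.51 and 7.76 (log2) with DMSO and 7.29, 7.13, 7.35, 7.30 and 7.23 with FX1, a fall of -0.69 ± 0.16 (SE, adjusted p = 0.0100). Rasd2 was 5.88, 6.17, 6.31, 6.55 and 6.36 against 5.72, 5.54, 5.64, 5.77 and 5.59 (-0.60 ± 0.13, limma adjusted p = 0.00720). Cd28 was 6.11, 6.07, 5.67, 5.85 and 6.14 against 4.85, 5.30, 5.46, 5.54 and 5.30 (-0.68 ± 0.15, limma adjusted p = 0.00824). The FX1 values of Gprc5c and Rasd2 were tightly grouped, while those of Cd28 were spread.

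The other members with FX1 had differences below 0 that did not pass. Tnfaip2 was 8.90, 9.04, 8.62, 9.07 and 8.61 with DMSO and 8.86, 8.48, 7.09, 7.83 and 8.08 with FX1 (-0.78 ± 0.27, limma adjusted p = 0.0589). Gdap1 was 7.78, 7.63, 7.37, 7.89 and 7.65 against 6.39, 6.63, 7.93, 6.89 and 6.87 (-0.72 ± 0.24, limma adjusted p = 0.0530). In FX1 replicate 3, Gdap1 was above every DMSO library while the other 4 FX1 libraries were below every DMSO library. The same library was the highest of all 10 for Dupd1: 8.33, 8.37, 8.55, 9.16 and 8.34 with DMSO against 7.03, 7.85, 10.03, 8.27 and 7.84 with FX1 (-0.35 ± 0.44, limma adjusted p = 0.612). Without FX1 replicate 3, Gdap1 (-0.97, limma adjusted p = 0.000566) and Dupd1 (-0.80, limma adjusted p = 0.0288) were lowered as well, and 5 members were called in all. Leaving out that library also raised the count over all genes, to 2186 lowered of 14716 tested, beside 1575 of 14642 with every library. Without FX1 replicate 1, Tnfaip2 passed (-0.98, limma adjusted p = 0.0192). Over the 14 settings run, limma adjusted p reached 0.141 for Tnfaip2, 0.125 for Gdap1 and 0.942 for Dupd1. Their smallest differences were -0.54, -0.58 and -0.05. Galr2 was 3.70 to 4.01 with DMSO and 3.37 to 3.85 with FX1 and did not pass the filter. In the authors' deposited table, the log2 fold change of Dupd1 was 0.12, on the other side of 0.

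Muscle fibre genes also fell with FX1. The mean log2 value of the 10 fibre markers was 15.03 to 15.17 with DMSO and 13.64 to 14.58 with FX1, and 6 of the 10 were lowered, among them Ckm (-1.003 ± 0.18, limma adjusted p = 0.00301). Adipocyte markers fell too, with 3 of 5 lowered and a median log2 change of -0.89 (Adipoq, -1.49 ± 0.27, limma adjusted p = 0.00300). Of the other sets, 1 of 5 satellite cell markers was lowered, 1 of 7 macrophage markers was raised, and 0 of 8 endothelial, 0 of 6 fibroblast and 0 of 6 Schwann and nerve markers were called. T cell markers averaged 3.28 to 3.69 with DMSO and 3.21 to 3.49 with FX1, near the floor of the table. Of 4 tested, 2 were lowered, and their DMSO means lay above that average. Cd8b1 had means of 5.85 with DMSO and 4.68 with FX1 (-1.16 ± 0.19, limma adjusted p = 0.00160). Cd8a had means of 5.01 and 4.31 (-0.70 ± 0.16, limma adjusted p = 0.00960), beside the -0.68 of Cd28. The part of these cell types in the FX1 falls of the members was not tested.

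**Figure D3:**
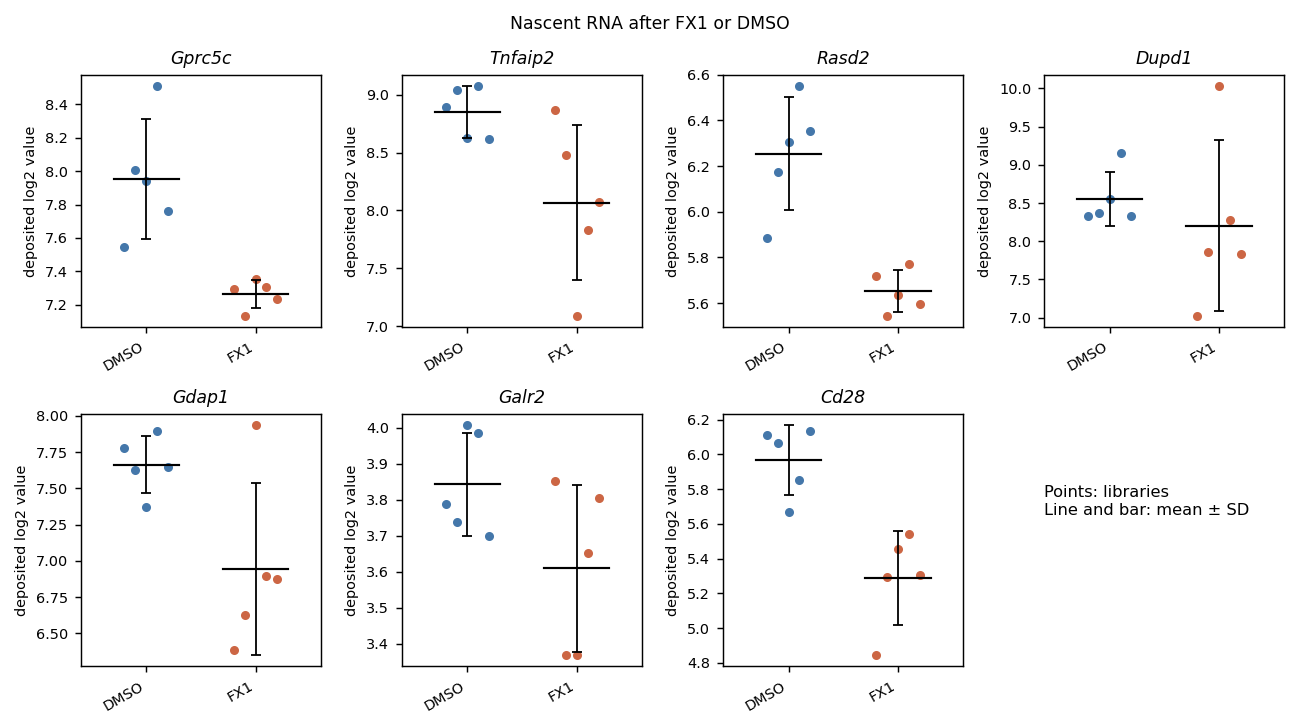
Deposited log2 values of nascent RNA (y axes) for the 7 genes in 5 DMSO and 5 FX1 libraries, with mean ± SD. Gprc5c, Rasd2 and Cd28 separate without overlap, and the single high FX1 point of Dupd1 (10.03) and Gdap1 (7.93) is replicate 3.

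**Figure D4:**
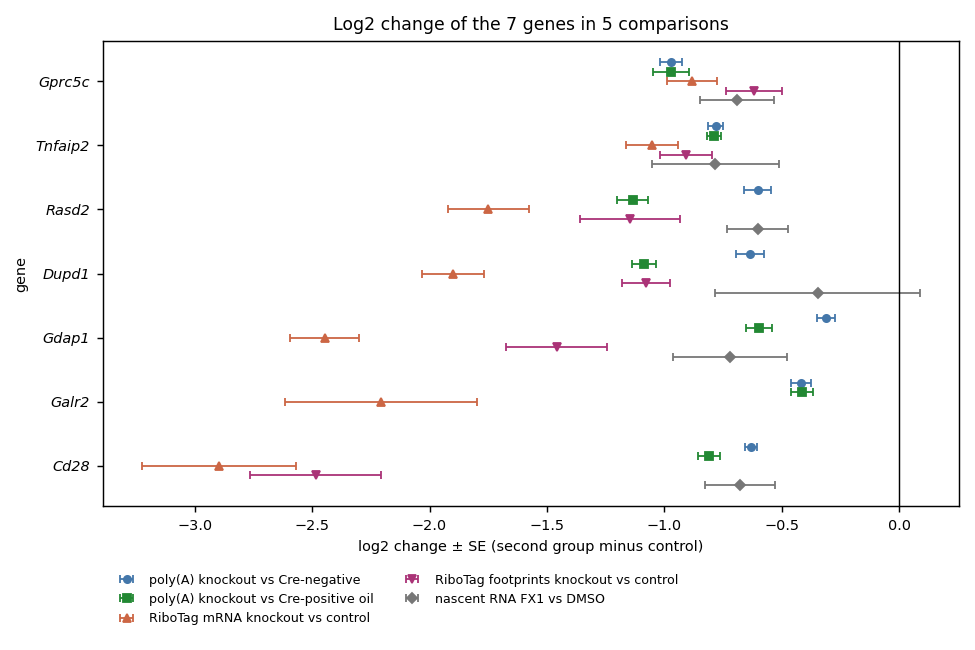
Log2 change ± SE (x axis) of each gene (y axis) in the 2 poly(A) comparisons, RiboTag mRNA, footprints and FX1 nascent RNA. All drawn values lie below 0, the RiboTag mRNA values are furthest from it for every gene but Gprc5c, and a missing symbol (Galr2 footprints and nascent RNA) did not pass the filter.

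H3K27ac was read in the same merged regions in the acute and chronic series, as tags per 10000000 in the library. The members had 46 regions by gene name: 18 for Cd28, 9 for Gprc5c, 8 for Tnfaip2, 6 for Rasd2, 4 for Dupd1 and 1 for Gdap1. Of these, 0 of the 44 tested passed in the acute series (4 had an unadjusted p below 0.05, limma) and 0 of the 42 tested in the chronic series (5 below 0.05), beside 0.0979% and 0.178% of all regions called. All 3 knockouts were below all 3 controls in 4 of the 44 acute and 5 of the 42 chronic regions tested, and the shares over all regions were 5.87% and 5.88%. They were above all 3 controls in 6 acute and 4 chronic regions, beside 7.06% and 6.68% of all regions.

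Beside the start of Dupd1, a 500 bp region (chr14:21714055-21714555, mm10) that begins 21 bases inside the gene, next to the sequence printed above, measured 11.9, 20.3 and 21.6 in acute Cre-negative muscle and 3.70, 3.92 and 5.78 in acute knockouts. The log2 difference was -1.77 ± 0.43 (SE), with an unadjusted p of 0.000218 and a limma adjusted p of 0.102. With edgeR on reads recovered from the signal, an alternative chosen after seeing the data, the difference was -1.99 ± 0.46 and passed (adjusted p = 0.0325). Over the 11 settings run, this one included, the difference was -2.02 to -1.25 (limma or edgeR adjusted p 0.0325 to 0.418). In the chronic series the region measured 13.4, 20.5 and 30.0 against 12.6, 9.93 and 12.02 (-0.77 ± 0.37, limma adjusted p = 0.733). The knockouts lay below the controls in both series, by less in the chronic one; whether the series differ was not tested.

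The starts of the other members did not show this. The region 152 bp past the start of Gprc5c measured 96.8, 93.2 and 93.0 in acute controls and 110, 99.5 and 101 in acute knockouts (0.13 ± 0.14, limma adjusted p = 0.876), in a gene whose RNA was lower in knockouts. In the chronic series it measured 103.0, 60.3 and 95.2 against 102.6, 97.6 and 94.2 (0.22 ± 0.20, limma adjusted p = 0.860). The Tnfaip2 region 902 bp past the start measured 79.8, 66.6 and 66.3 against 42.8, 79.9 and 59.7 acutely (-0.26 ± 0.20, limma adjusted p = 0.800) and 79.9, 84.7 and 94.3 against 48.0, 85.5 and 44.9 in the chronic series (-0.59 ± 0.23, adjusted p = 0.626). In Rasd2 (signal 4.23 to 16.5 acutely) and Cd28 (14.9 to 26.6 acutely) the start regions overlapped between groups in both series. Around Galr2 and Gdap1 there was no region within 1000 bp of the start, and the nearest lay 6439 bp and 24032 bp away.

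**Figure D5:**
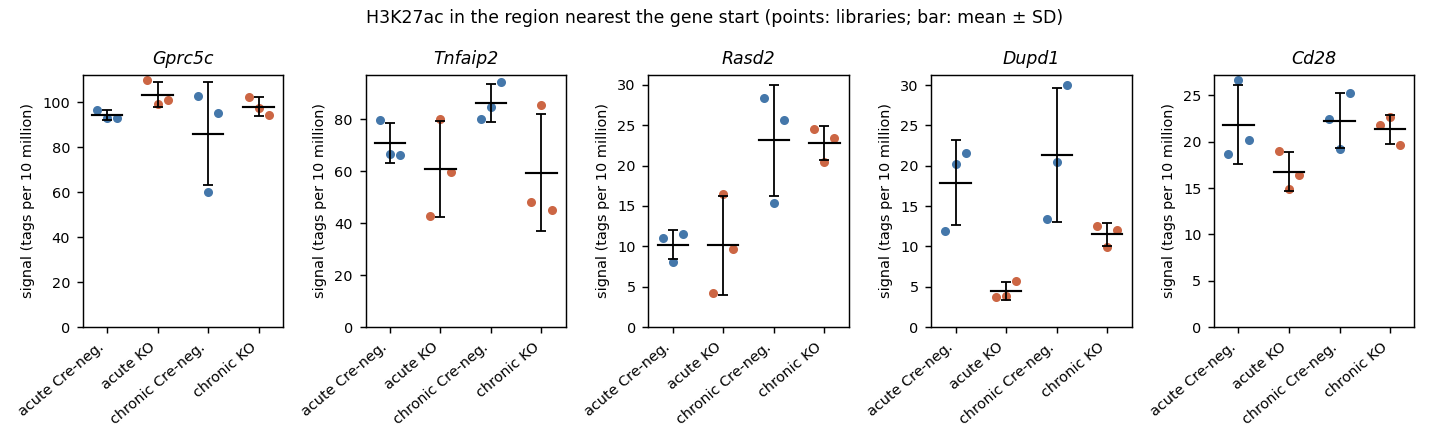
H3K27ac signal (y axes, tags per 10000000, from 0) in the region nearest the start of the 5 members that have one, in 3 control and 3 knockout libraries of the acute and chronic series, with mean ± SD. The knockouts lie below the controls in both series for Dupd1 only.

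BCL6 peaks in wild-type muscle numbered 10925, and 1672 genes had 1 within 1000 bp of their start by gene name. None of the 7 members was among them (0 of 7), beside a share of 6.70% of the genes in the poly(A) table. Cd28 had 3 peaks, at -80814, -77240 and 34327 bp from its start. Dupd1 had 1 in its intron 3 (chr14:21685784-21686004), and Tnfaip2 had 1 in an intergenic stretch 15223 bp past its start. Peak scores are the authors' and rank these at 2444 to 9089 of the list. The nearest peaks to Galr2 (6650 bp) and Gdap1 (57081 bp) were assigned to the genes Srp68 and Jph1. Those nearest to Gprc5c (135800 bp) and Rasd2 (1289773 bp) were assigned to Dnaic2 and Gm10649. By position, the peak nearest the start of Dupd1 lay 15218 bp away and was assigned to Dusp13.

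H3K27ac in the poly(A) mice was read in the 1000 bp windows on the members' BCL6 peaks by gene name. It was lower in knockouts, with no overlap, at Dupd1 intron 3 (51.3, 58.4 and 54.9 in Cre-negative mice against 42.5, 29.1 and 28.0) and past Tnfaip2 (38.0, 29.9 and 44.8 against 28.3, 27.7 and 28.5). These are 2 of the 5 member windows, and the share over all 9080 windows tested was 5.91%. The 3 windows of Cd28 overlapped between groups. The log2 differences were -0.73 ± 0.19 (SE) at Dupd1 and -0.38 ± 0.20 at Tnfaip2, and the median over all windows was 0.14 on this scale and -0.02 with edgeR's TMM scaling on recovered reads. These mice are among those that chose the genes, so no test is given. At the same site in Dupd1 intron 3 (chr14:21685598-21686098), the groups overlapped in the other mice: 12.7, 19.1 and 13.0 against 14.3, 24.3 and 13.5 in the acute series (0.18 ± 0.34, limma adjusted p = 0.943), and 25.4, 8.98 and 13.0 against 9.82, 4.41 and 8.85 in the chronic series (-0.89 ± 0.47, limma adjusted p = 0.759). At the site past Tnfaip2 (chr12:111457542-111458113), the acute knockouts were lower without overlap (31.4, 21.4 and 23.1 against 14.8, 10.2 and 21.2) but did not pass (-0.72 ± 0.32, limma adjusted p = 0.583), and the chronic groups overlapped (-0.28 ± 0.37, limma adjusted p = 0.914).

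Relatives of each member were read from lists of gene families and pathways, without the members themselves. Most of those tested were not called, and some were lowered or raised. Against Cre-negative muscle, 9.66% of all genes were lowered and 6.25% raised. Of the GPRC5 receptors 0 of 2 tested were called, and of the CD28 family genes and ligands 0 of 4. These lists are too short to set against those shares. None of the 7 other galanin system genes passed the filter. Of 9 GTPases of the Rasd, Rem and Rad kind, 0 were lowered and 1 was raised (Rasl11b, 0.37 ± 0.04, limma adjusted p = 6.77e-05). Of 14 atypical dual specificity phosphatases, 3 were lowered and 1 raised, Dusp18 (0.50 ± 0.09, limma adjusted p = 0.00180). Those lowered included Dusp27 (-0.22 ± 0.05, limma adjusted p = 0.00736) and Styx (-0.10 ± 0.03, limma adjusted p = 0.0219). Of 14 exocyst genes and relatives, 4 were lowered and 0 raised, led by Exoc7, a subunit of the vesicle-tethering exocyst (-0.45 ± 0.04, limma adjusted p = 5.1e-06). Of 15 genes of mitochondrial fission and fusion, 3 were lowered (Opa1, Mfn2 and Dnm1l, by 0.08 to 0.15) and 0 raised. Of 19 TNF and NF-kB induced genes, 2 were lowered and 1 raised, Nfkbia, the inhibitor of NF-kB (0.32 ± 0.06, limma adjusted p = 0.00237). Those lowered were Sod2 (-0.14 ± 0.03, limma adjusted p = 0.00409) and Rel (-0.08 ± 0.03, limma adjusted p = 0.0492).

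In RiboTag mRNA, with 2.25% of genes lowered and 1.95% raised, 2 of 14 exocyst genes were lowered: Exoc7 (332 ± 41.0 against 167 ± 12.2 CPM, edgeR adjusted p = 0.000233) and Exoc4 (187 ± 14.2 against 142 ± 12.5 CPM, edgeR adjusted p = 0.0263). Of 10 Rasd, Rem and Rad kind GTPases, 2 were raised, Rasl11b (13.4 ± 2.50 against 25.4 ± 1.18 CPM, edgeR adjusted p = 0.00308) and Rrad (4.29 ± 1.72 against 13.0 ± 3.07 CPM), on the other side from Rasd2. Among 14 atypical phosphatases and 15 mitochondrial dynamics genes, 0 were called. With FX1, where 11.3% of genes were raised, 3 of 16 TNF and NF-kB induced genes were raised and 0 lowered, counted without Tnfaip2, whose own change did not pass.

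The genes whose values ran closest to each member were found by the smaller of 2 correlations, over 8 RiboTag mRNA libraries and 9 poly(A) libraries of the Cre-negative table, among 13038 genes tested in both. The libraries share the genotype contrast that chose the members, so this is a description. Tnfaip2 and Gprc5c were each other's closest gene (smaller r 0.979). Cd28 was closest to Armcx4 (0.974), Dupd1 to Smox, a spermine oxidase (0.983), Gdap1 to Kcnab1, a potassium channel subunit (0.965), Galr2 to Map3k7cl (0.958) and Rasd2 to Exoc7 (0.960). Exoc7 was also among the 3 closest to Gprc5c, and Amd1, a polyamine synthesis enzyme, among the 3 closest to both Rasd2 and Gdap1.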

How the data were processed

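Values were taken for 7 genes from 7 tables and a peak list, with whole-table fits. The tools named are DESeq2 1.14.1, HOMER, Bowtie 1.2 and STAR 2.4.0, with build mm10, per the submitters' processing notes. Per the file headers, the authors deposited poly(A) and nascent RNA as log2 values, made from tags counted on both strands in exons or whole gene bodies and transformed by a method not given in the sources used here. Per the file headers, the RiboTag table holds deposited counts over gene bodies with at most 5 tags per position. The H3K27ac tables hold a deposited signal scaled to 10000000 tags. The authors' ratio tables of translation efficiency, their log2 fold changes and their peak score were read as deposited, and the authors' p-value columns were not used.

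Counts were fitted with edgeR 4.0.16 (quasi-likelihood, TMM, filterByExpr at a minimum count of 10). Log2 values above 4 in at least as many libraries as the smaller group has, and log2(signal + 1) of regions with a mean signal of at least 5, were fitted with limma 3.58.1 with a trended variance. Calls are at a Benjamini-Hochberg adjusted p below 0.05 over the whole table. Translation efficiency is the interaction of genotype and library type. The SE of an edgeR value is its size divided by the square root of F. Work used matplotlib 3.10.9, scipy 1.17.1, pandas 2.3.3 and numpy 2.4.6 in Python 3.11.15, and DESeq2 1.42.0 in R 4.3.3, and the fits were tested on simulated data.

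The members and lists were chosen with earlier results of these data known. The design planned tests of some members in knockout comparisons; these are not given, because the members rank among the lowest fold changes in both poly(A) comparisons and in RiboTag mRNA. Named genes are the 7 members, Bcl6, up to 3 called genes of a list with the smallest p, and the 3 genes closest to each member. Lists hold 10 families or pathways and 8 sets of cell markers. mRNA and footprint libraries of the same number come from the same animal by the labels; their deviations from the group means correlated at -0.06 to 0.41 over genes. Alternatives were quantile normalisation, no filter, other pseudocounts, DESeq2, a replicate block and leaving out each library. Reads recovered from H3K27ac signal were whole within 0.05 reads for 100% of values in every library. RefSeq sequences (GRCm38.p6) were found for 4 of the 7 members.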

Additional observations from a re-analysis of the deposited data

Results flagged for a closer look

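In 70 groups of 4 or 5 libraries (7 genes in 5 tables), 4 libraries stood apart from the rest of their group for 1 gene, where chance gives about 1 in 20 groups. Dupd1 footprints in the RiboTag control Ctr-Quad_RPF_11745 were 145.1 CPM, above the other 3 controls (121.7 to 125.5 CPM). Dupd1 nascent RNA in DMSO replicate 4 was 9.16, above the other 4 DMSO libraries (8.33 to 8.55). Gdap1 poly(A) RNA in Cre-negative mouse P1909 was 8.16, above 8.06 to 8.07 in the other 3. Gprc5c poly(A) RNA in oil-treated mouse P1910 was 10.51, above 10.03 to 10.11 in the other 3. The 3 libraries from knockout comparisons are controls and lie on the far side from the knockouts, and the DMSO library belongs to the FX1 comparison in wild-type muscle.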

How the results depend on the processing

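The members' log2 changes in the poly(A), RiboTag mRNA, footprint and nascent RNA comparisons kept their sign under every alternative run. Counts of called genes moved with the test. The Cre-negative comparison called 1387 genes with no filter on low values (2084 as reported), and RiboTag mRNA called 969 with DESeq2 (609). Acute H3K27ac regions called rose from 70 to 146 with a pseudocount of 5 and to 167 with edgeR on recovered reads, an alternative chosen after seeing the data. Chronic regions rose from 121 to 240 and 380, and to 307 with quantile normalisation. In windows of the poly(A) mice, 1517 were raised and 131 lowered on signal, 870 and 522 with quantile normalisation, and 1004 and 382 on recovered reads. In translation efficiency 437 were raised and 1043 lowered with edgeR, 915 and 1248 with DESeq2 (2163 in all), and 246 and 1073 with no filter.

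Leaving out 1 library gave 1693 to 1913 calls against Cre-negative, 2553 to 3064 against oil and 2228 to 4550 in nascent RNA. RiboTag mRNA gave 395 to 826, with 395, 398 and 396 without Ctr-Quad_RNA_11734, Ctr-Quad_RNA_11735 and mKO-Bcl6_Quad_RNA_11722. Footprints gave 2293 to 3761, lowest without mKO-Bcl6_Quad_RPF_11721. Translation efficiency gave 310 to 1892, with 310, 551 and 982 without the control animals of Quad_RNA_11734, Quad_RNA_11735 and Quad_RNA_11673, and 571, 408 and 373 without the knockouts of Quad_RNA_11688, Quad_RNA_11721 and Quad_RNA_11722. Acute regions gave 10 to 83, with 31, 15 and 10 without Ctr_6366, imKO_6346 and imKO_6349. Chronic regions gave 0 to 400, with 400 without Ctr_1801 and 6 without imKO_1803. Without imKO_1794 or imKO_1802 limma called 0 chronic regions, with 3213 and 3240 at an unadjusted p below 0.05. Windows gave 1043 to 1635, with 1043 and 1053 without mKO_1900 and mKO_1907. Members lowered by FX1 numbered 3 to 5. The 5 came without FX1 replicate 3, the setting with the most calls over all genes (4550). With quantile normalisation 4 were lowered, where Tnfaip2 passed (limma adjusted p = 0.0465) and 1834 of 14642 genes were lowered.

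The replicate block on the nascent RNA numbers called 1.9e3 genes (1001 raised and 908 lowered, against 3227 without it), and Gprc5c, Rasd2 and Cd28 passed in it. FX1 and DMSO libraries of 1 number correlated at -0.43 to 0.17, and 0 of 5 correlated best with their own number, so the numbers are not shown to pair them. With the animal as a replicate block, translation efficiency called 1717 genes (1480 without it).

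Signs turned only for differences no larger than about their SE, and some of these ranged widely between settings. For Rasd2 beside its start the chronic difference (0.02) was -0.0060 with quantile normalisation, -0.057 with edgeR on recovered reads and -0.24 to 0.18 with 1 library left out, below 0 without Ctr_1801, imKO_1794 or imKO_1803. The acute one was -0.58 to 0.29, above 0 without imKO_6346. With 1 library left out, chronic differences were -0.15 to 0.036 for Cd28, above 0 without Ctr_7362 or imKO_1803, and -0.013 to 0.37 for Gprc5c, below 0 without Ctr_1801. Galr2 translation efficiency ranged from -0.92 to 0.71. The cause was not tested. The SE of the acute difference beside the start was 0.43 for Dupd1 and 0.44 for Rasd2, where signal is low, and 0.14 for Gprc5c.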

Other observations

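Among the 20 glucocorticoid-induced genes listed, a set that holds no member, 12 were raised and 1 lowered in nascent RNA with FX1. Over all genes 11.3% were raised and 10.8% lowered. Fkbp5, a chaperone partner of the glucocorticoid receptor, led the list (2.002 ± 0.19, log2, SE, limma adjusted p = 0.000122). In RiboTag knockout mRNA, Fkbp5 was on the other side (137.6 ± 58.9 CPM in controls against 40.7 ± 11.4 CPM in knockouts, SD, n = 4 each, edgeR adjusted p = 0.00588). The list as a set was not: 1 of its 20 genes was raised and 1 lowered there, with a median log2 change of -0.03. Dusp1, a phosphatase of MAP kinases, was lower in knockout poly(A) RNA than in Cre-negative muscle (-0.28 ± 0.04, limma adjusted p = 0.000233) and higher in RiboTag knockout mRNA (149.3 ± 14.8 against 203.3 ± 12.6 CPM, edgeR adjusted p = 0.0157). Ngfr, a neurotrophin receptor, rose in RiboTag mRNA (3.78 ± 1.63 against 14.4 ± 2.33 CPM, edgeR adjusted p = 0.00198).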
